A study of Drosophila melanogaster with 4 samples.

Results

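Cadherins are transmembrane proteins that join cells through repeated extracellular domains, and 10 genes of this group were followed here: the classical cadherins shg, CadN and CadN2, the atypical cadherins Cad86C, Cad99C, kug, ft, ds and stan, and fj, which encodes no cadherin but a kinase acting on the cadherins encoded by ft and ds. The members were named by symbol and matched to FlyBase identifiers, and all 10 were found among the 17875 genes of the matrices. Single cells of whole wild-type OregonR embryos without any treatment were captured in 4 droplet libraries. Of these, 2 hold embryos of stage 13-16, when organs take on their final shape, and 2 hold embryos of stage 10-12, when organs are first laid down (n = 2 libraries per stage). Each library came from its own collection, and the paper's methods give other temperatures and times of collecting and ageing for each stage. Stage, collection and temperature therefore cannot be told apart, and p-values measure the spread between these libraries. The 2 collections of stage 13-16 are described as unequal in age, replicate 1 being richer in the later embryos and replicate 2 in the earlier ones, so that their spread also holds age.

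As background, classical cadherins bind the same cadherin on a neighbouring cell and link through catenins to actin at adherens junctions. shg encodes E-cadherin, the classical cadherin of Drosophila epithelia, and CadN encodes N-cadherin, known from axons and from mesoderm. Planar polarity orients cells within the plane of a sheet. In one system the giant cadherins Fat and Dachsous, encoded by ft and ds, bind each other between neighbouring cells after Four-jointed, encoded by fj, has phosphorylated them in the Golgi. In the other, the core system, Flamingo, a cadherin with 7 transmembrane passes encoded by stan, joins neighbouring cells together with Frizzled and Van Gogh.

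The 10 genes lie on the chromosome arms 2L, 2R, 3L and 3R and differ widely in size (coordinates of the BDGP6.54 assembly, which is newer than the annotation used for counting). CadN (2L:17647053-17778340, minus strand) and CadN2 (2L:17786971-17875247, minus strand) are neighbours with 8630 bases between them, and CadN spans 131 kb. ft lies at 2L:4198404-4221796 and ds at 2L:640013-714983, both on the minus strand. shg (2R:21049654-21057197, minus strand) and fj (2R:18232761-18236311, plus strand) are the shortest of the 10, though longer than the median gene of 1690 bases. fj has a single exon. stan lies at 2R:10673345-10721138, Cad86C at 3R:10827079-10849030, Cad99C at 3R:29841657-29854699 and kug at 3L:20005301-20024607, all on the plus strand. CadN, CadN2, Cad99C and ds each overlap at least 1 gene on the other strand, and CadN2 also 1 on its own. Whether reads that fit both CadN and CadN2 were lost or split was not tested, so that the low counts of CadN2 are uncertain.

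Levels are given as CPM (counts-per-million), the UMIs (counted RNA molecules) of a gene relative to the UMIs of all genes in the same cells of a library. The libraries hold 71622535 to 394684653 UMIs, of which 7736 to 23507 cells per library were kept. Cells were grouped into clusters that received a name with the ending "-like" from marker genes, none of which is a member, and the members were also kept out of the genes used for clustering. Of these types, 24 had at least 20 cells in each library. They were joined into epithelia (epidermis, trachea, salivary gland, hindgut, Malpighian tubules, foregut and pharynx), neurons (CNS and sensory neurons) and mesoderm (muscle and visceral mesoderm types), and further types stayed outside these classes. Clusters with few marker genes of their own gave the removed droplets, 4528 to 9743 barcodes per library, and a level at or below theirs is read as background. This is a reading rule only. The share of stray RNA in kept cells was not estimated, so a gene read as background was not shown to be absent from those cells. Any 2 libraries share 94 to 389 barcodes, at most 1.1% of a library. UMIs were added up by library and class or type, the library was the replicate, and a gene was called at an adjusted p of 0.05 by edgeR's quasi-likelihood test with Benjamini-Hochberg adjustment over all genes tested.

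Epithelia, neurons and mesoderm held different sets of these genes. ft, ds, fj, Cad86C and Cad99C had their highest class levels in epithelia, stan in neurons, and CadN in neurons and then mesoderm, while shg and kug were spread over the classes. All 10 members passed the filter on low counts. In neurons over epithelia all 10 were called, 3 higher and 7 lower, beside 65.1% of the 10636 genes tested (32.5% higher and 32.7% lower). In mesoderm over epithelia all 10 were called again, 2 higher and 8 lower, beside 57.2% of all genes (29.7% higher and 27.5% lower). The median log2 difference of the members was -1.41 in neurons and -2.64 in mesoderm, against 0.01 and 0.03 over all genes. Since 57.2% or more of all genes were called, the sizes of the differences carry more than the counts do.

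**Figure D1:**
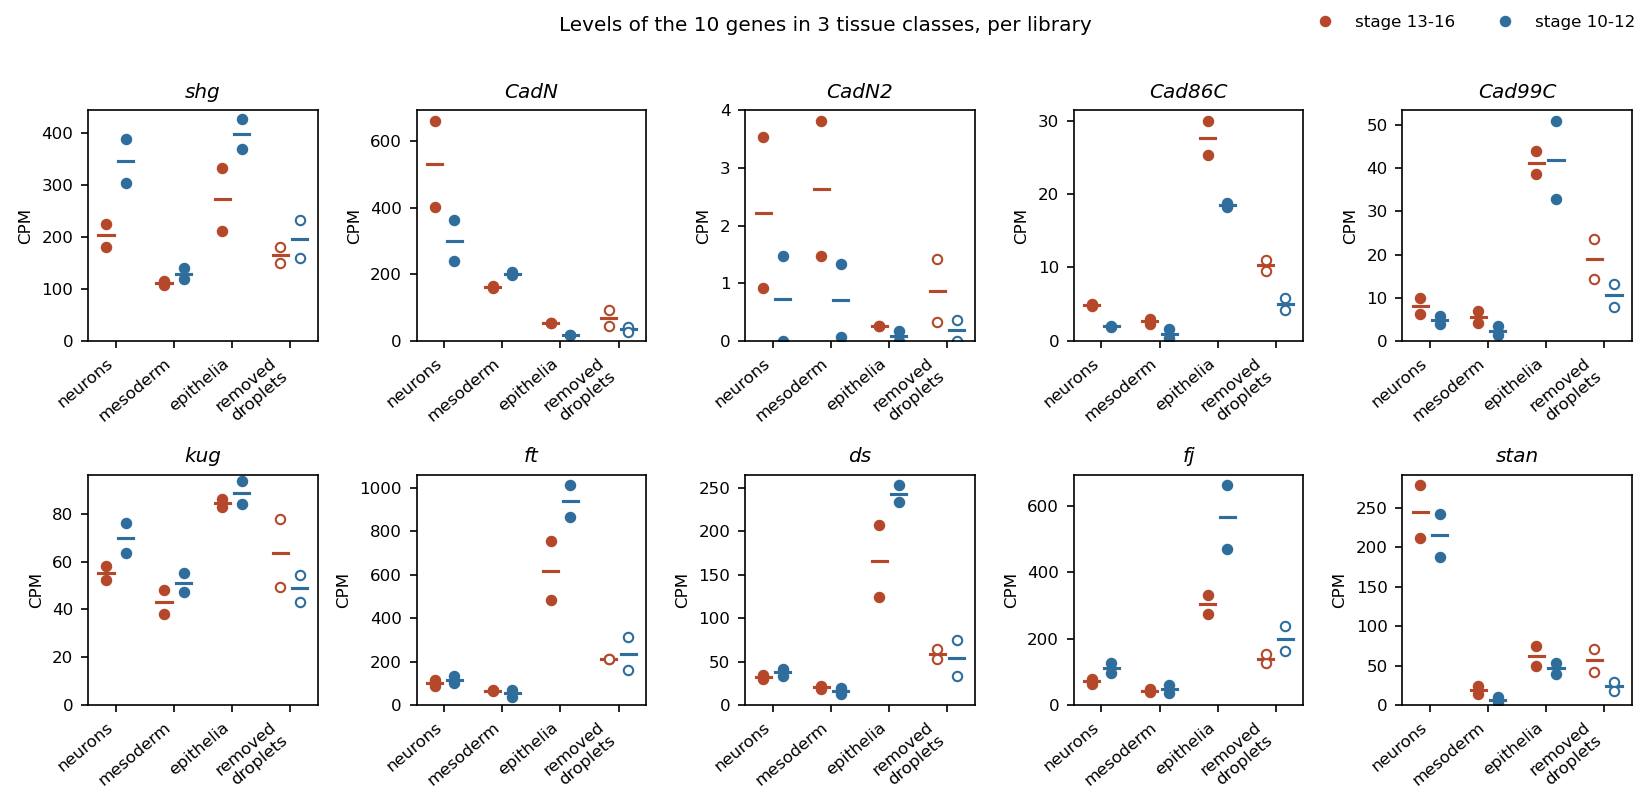
CPM of the 10 genes (a panel each) in neurons, mesoderm, epithelia and the removed droplets; points are the libraries, coloured by stage. The epithelial points of ft, ds, fj, Cad86C and Cad99C lie above all other points of their panel, and stan and CadN are highest in neurons.

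ft, the receptor of the Fat and Dachsous pair, was present at 117 and 89.9 CPM in stage 13-16 neurons and at 134 and 101 CPM in stage 10-12 neurons. In epithelia it reached 754 and 483 CPM at stage 13-16 and 1013 and 869 CPM at stage 10-12. No neuronal library came near any epithelial one, and the difference was log2 -2.85 ± 0.13 (SE, n = 4 libraries, adjusted p = 6.33e-07, edgeR). Mesoderm held 39.3 to 69.4 CPM, lower still, at log2 -3.61 ± 0.14 over epithelia. Neurons and mesoderm lay below the removed droplets (162 to 312 CPM) in all 4 libraries, so that ft in both classes is read as background.

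ds, the ligand of that pair, had 34.7 and 29.7 CPM in stage 13-16 neurons and 42.1 and 33.4 CPM in stage 10-12 neurons. In epithelia it had 207 and 124 CPM at stage 13-16 and 253 and 233 CPM at stage 10-12. The groups again did not overlap, with log2 -2.57 ± 0.15 in neurons over epithelia and -3.38 ± 0.15 in mesoderm over epithelia (adjusted p = 1.48e-06 and 3.2e-07, edgeR). The levels of fj, the Golgi kinase, were 79.4 and 63.0 CPM in stage 13-16 neurons and 126 and 95.1 CPM in stage 10-12 neurons. Its epithelial levels were 331 and 274 CPM at stage 13-16 and 662 and 468 CPM at stage 10-12. fj differed by log2 -2.27 ± 0.12 in neurons and by -3.10 ± 0.12 in mesoderm over epithelia (adjusted p = 8.99e-07 and 1.62e-07, edgeR). The 3 genes of the Fat and Dachsous system were thus lower in both classes than in epithelia as a whole in every library. In mesoderm they lay below the removed droplets in all 4. The epithelial types were not alike. At stage 13-16 the Malpighian tubule-like and salivary gland-like clusters held 94 and 154 CPM of ft, 33 and 51 of ds and 41 and 58 of fj. At stage 10-12 those types held 347 and 458 CPM of ft.

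Cad99C, a cadherin of microvilli known from follicle cells of the ovary, had 6.3 and 9.9 CPM in stage 13-16 neurons and 5.7 and 3.9 CPM in stage 10-12 neurons, against 38.6 and 43.9 CPM in stage 13-16 epithelia and 51.0 and 32.8 CPM in stage 10-12 epithelia. Cad86C, a less studied atypical cadherin, had 4.8 to 5.0 CPM in stage 13-16 neurons and 1.9 to 2.0 CPM in stage 10-12 neurons. In epithelia it had 29.9 and 25.3 CPM at stage 13-16 and 18.8 and 18.2 CPM at stage 10-12. Both genes were low in neurons and mesoderm, which were below the removed droplets in every library. The log2 differences over epithelia were -2.82 ± 0.14 for Cad99C and -2.95 ± 0.25 for Cad86C in neurons, and -3.48 ± 0.14 and -3.73 ± 0.25 in mesoderm.

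shg, E-cadherin, was not restricted to epithelia. It had 226 and 181 CPM in stage 13-16 neurons and 389 and 305 CPM in stage 10-12 neurons, and 334 and 211 CPM in stage 13-16 epithelia and 428 and 368 CPM in stage 10-12 epithelia. Neurons were lower than epithelia in each library, by log2 -0.36 ± 0.10 (adjusted p = 0.0136, edgeR), a difference smaller than that between the libraries of a class. At stage 13-16 alone the difference was -0.56 ± 0.14 (adjusted p = 0.00872, edgeR). At stage 10-12 alone it was -0.15 ± 0.14 and not called (adjusted p = 0.423, edgeR). In mesoderm shg had 107 to 140 CPM, below the removed droplets in all 4 libraries, and differed from epithelia by log2 -1.38 ± 0.10 (adjusted p = 6.65e-06). The mesodermal types were not alike. Muscle precursor-like clusters held 138.5 to 397.8 CPM of shg at stage 10-12 and 248.7 CPM at stage 13-16. Somatic muscle-like clusters held 34.3 to 226.3 CPM at stage 10-12 and 26 to 64 CPM at stage 13-16.

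CadN, N-cadherin, had 402 and 661 CPM in stage 13-16 neurons and 362 and 241 CPM in stage 10-12 neurons. Epithelia held 54.9 and 52.7 CPM at stage 13-16 and 17.9 and 16.4 CPM at stage 10-12, which exceeded the removed droplets in 1 of 4 libraries. Neurons were higher by log2 3.65 ± 0.14 (adjusted p = 3.68e-07, edgeR). In mesoderm CadN had 160 and 163 CPM at stage 13-16 and 206 and 197 CPM at stage 10-12. That was above the removed droplets and above epithelia in every library, by log2 2.63 ± 0.13 over epithelia (adjusted p = 6.24e-07).

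stan, the core planar polarity cadherin, had 212 and 279 CPM in stage 13-16 neurons and 243 and 188 CPM in stage 10-12 neurons. Epithelia held 75.3 and 50.2 CPM at stage 13-16 and 53.1 and 39.9 CPM at stage 10-12, which exceeded the removed droplets in 3 of 4 libraries. Every neuronal value was above every epithelial one, with log2 2.03 ± 0.19 (adjusted p = 2.24e-05, edgeR). Mesoderm held 4.1 to 24.3 CPM and was below the removed droplets in all libraries, at log2 -2.18 ± 0.21 over epithelia. stan was therefore the one cadherin of the planar polarity systems here whose highest class was neurons.

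kug, also called Fat2, which drives the collective rotation of follicle cells, differed little between the classes. It had 52.3 and 58.2 CPM in stage 13-16 neurons and 76.0 and 63.4 CPM in stage 10-12 neurons, and 82.9 and 86.2 CPM in stage 13-16 epithelia and 93.5 and 83.9 CPM in stage 10-12 epithelia. Neurons differed by log2 -0.54 ± 0.07 and mesoderm by -0.83 ± 0.07 from epithelia (adjusted p = 0.000135 and 1.13e-05, edgeR).

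CadN2, the neighbour of CadN, was counted rarely. In neurons 15 and 144 UMIs were counted at stage 13-16 and 22 and 0 at stage 10-12, and in mesoderm 48 and 212 at stage 13-16 and 2 and 21 at stage 10-12. Epithelia held 4 and 16 UMIs at stage 13-16 and 0 and 2 at stage 10-12, and the count of 0 allows up to 0.0813 CPM. Cells with a CadN2 UMI made up 0.247% and 1.76% of stage 13-16 neurons and 0.862% and 2.85% of stage 13-16 mesodermal cells, against 0.107% and 0.292% of epithelial cells in the same libraries. The median cell of those libraries held 2368 and 4434 UMIs in neurons, 3618 and 9362 in mesoderm and 2467 and 3052 in epithelia. The shares therefore rest on unequal depths. The fitted difference of neurons over epithelia was log2 3.73 ± 1.07 (adjusted p = 0.0131, edgeR). At stage 13-16 alone it was 3.01 ± 1.2 and not called (adjusted p = 0.0534, edgeR). Its sign depended on 1 library: without stage 10-12 replicate 1 it was -1.18 and not called. Stage 10-12 then held 0 UMIs in neurons and 2 in epithelia.

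In neurons over mesoderm 9 members were higher and none lower, beside 63.0% of all genes called (34.5% higher and 28.5% lower). stan stood out with log2 4.21 ± 0.22 (adjusted p = 6.68e-07, edgeR). shg and CadN were higher in neurons by log2 1.02 ± 0.10 and 1.01 ± 0.12. The other 6 differences were at most 0.82. Of those genes, ft, fj, Cad86C and Cad99C are read as background in both classes, and CadN2 was not called (log2 0.30, adjusted p = 0.768). The 9 calls are of the mean over both stages. At stage 13-16 alone 4 members were higher (shg, CadN, fj and stan), beside 3199 genes higher and 2836 lower of 10636. At stage 10-12 alone 8 members were higher, beside 2801 genes higher and 2417 lower. In barcodes under 4000 UMIs alone, a split chosen after seeing the data, 2 of the 9 calls were made, stan at 2.52 and CadN at 0.86. The share of cells under 4000 UMIs was 25.5% to 80.8% by class and library, and its part in the smaller differences was not tested.

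Within the classes the 24 types were compared one by one with all other kept cells of their libraries. Of 240 comparisons of a member and a type, 41 were higher and 103 lower, 144 called in all, against 32.8% of the comparisons over all genes (13.1% higher and 19.7% lower). In 38 of the 41 higher calls the type lay above the removed droplets in both stage 13-16 libraries, and in 40 of them in both stage 10-12 libraries. In none of the 103 lower calls was that so at either stage.

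**Figure D2:**
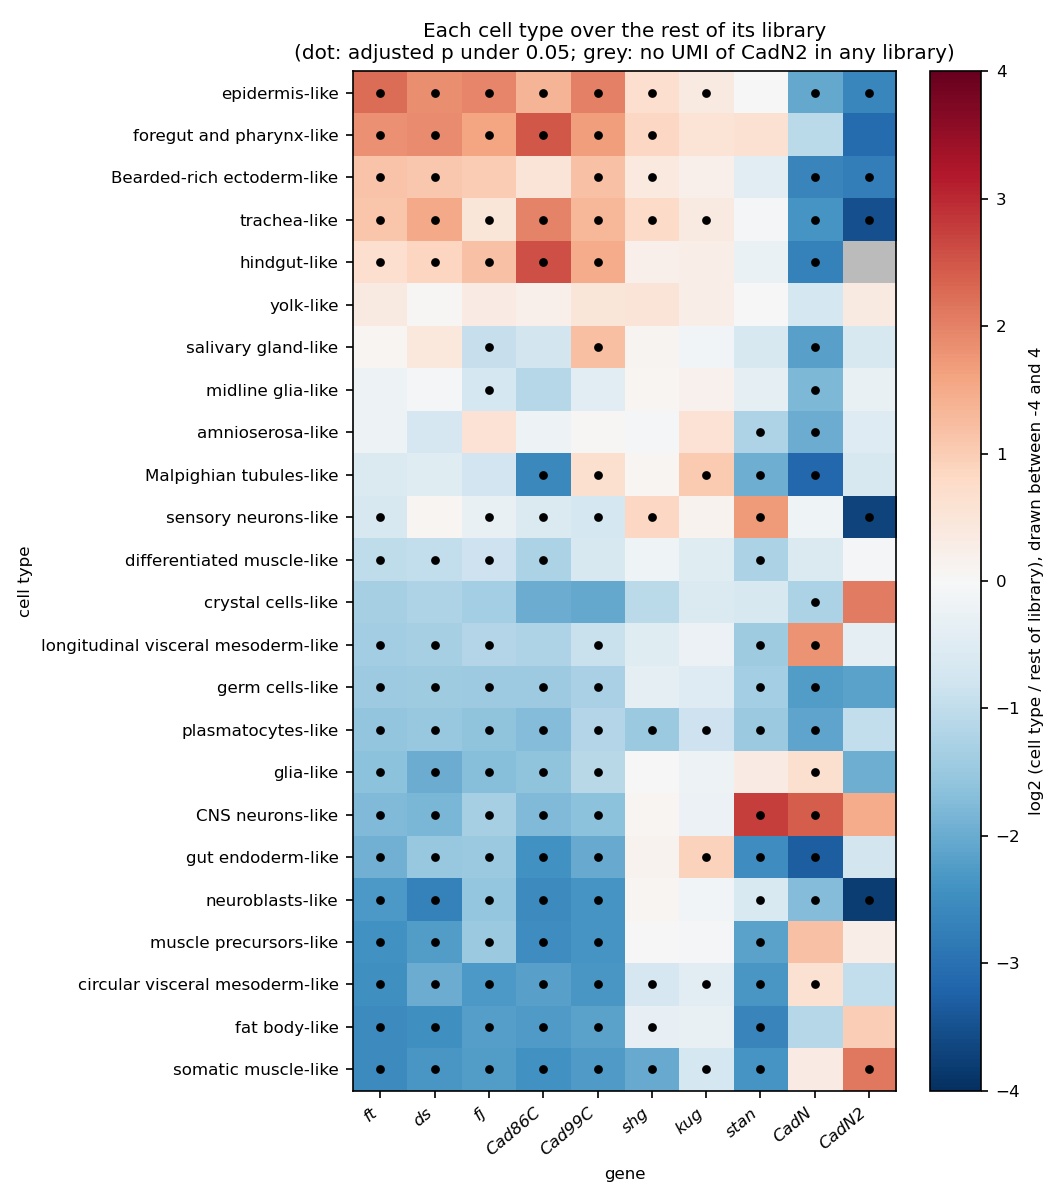
Log2 difference of each of 24 cell types (rows) over the rest of its library for the 10 genes (columns), red higher and blue lower, with a dot where the adjusted p was under 0.05. ft, ds, fj, Cad86C and Cad99C are red in the upper 5 epithelial and ectodermal rows, and CadN and stan in CNS neurons.

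The epidermis-like cells form the outer sheet of the embryo. They carried ft at log2 2.24 ± 0.21, fj at 1.95 ± 0.24, ds at 1.85 ± 0.26 and Cad99C at 2.03 ± 0.19 over the rest. The foregut and pharynx-like cells carried the same genes at 1.82 ± 0.17, 1.57 ± 0.19, 1.89 ± 0.17 and 1.68 ± 0.20. At stage 13-16 they were 1 cluster of 3668 cells, beside epidermis-like clusters of 1073 and 1023 cells. The paper counts epipharynx, esophagus and hypopharynx as rare and epidermis as a major contributor, so that this name is uncertain. Whether the cluster holds epidermal cells was not tested. In trachea-like cells, the branching airways, ds (1.52 ± 0.15) and ft (1.10 ± 0.12) were higher, while fj was closer to the rest (0.48 ± 0.11). In hindgut-like cells fj (1.17 ± 0.17) was higher by more than ft (0.66 ± 0.13), a difference between genes that was not tested. All of these were called.

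In CPM, ft had 1435 and 650 in foregut and pharynx-like cells, 857 and 877 in Bearded-rich ectoderm-like cells and 711 and 628 in epidermis-like cells at stage 13-16. At stage 10-12 it had 1142 and 976 in foregut and pharynx-like cells, 1141 and 986 in epidermis-like cells and 801 and 648 in trachea-like cells. The first 2 types of each stage could not be ordered, since their libraries overlapped. Below them both replicates of stage 10-12 put trachea above hindgut (606 and 635). At the other end of the order, somatic muscle-like cells held 28.6 and 54.4 CPM at stage 13-16 and 60.1 and 36.2 CPM at stage 10-12.

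ds followed ft over the types and fj somewhat less closely. Over the 98 sums of a type and a library with at least 20 cells, the levels of ft and ds on a log2 (CPM + 10) scale correlated with Pearson r = 0.963, those of ft and fj with 0.912 and those of ds and fj with 0.85. These sums share libraries and depths, so that the values are descriptions. fj had 593 CPM in amnioserosa-like cells of stage 10-12 replicate 1 but 176 in replicate 2, which overlapped the range of the other types. Salivary gland-like cells, which form unbranched secretory tubes, held less fj than the rest (log2 -0.92 ± 0.26, adjusted p = 0.0173, edgeR), while ft and ds were not called there.

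**Figure D3:**
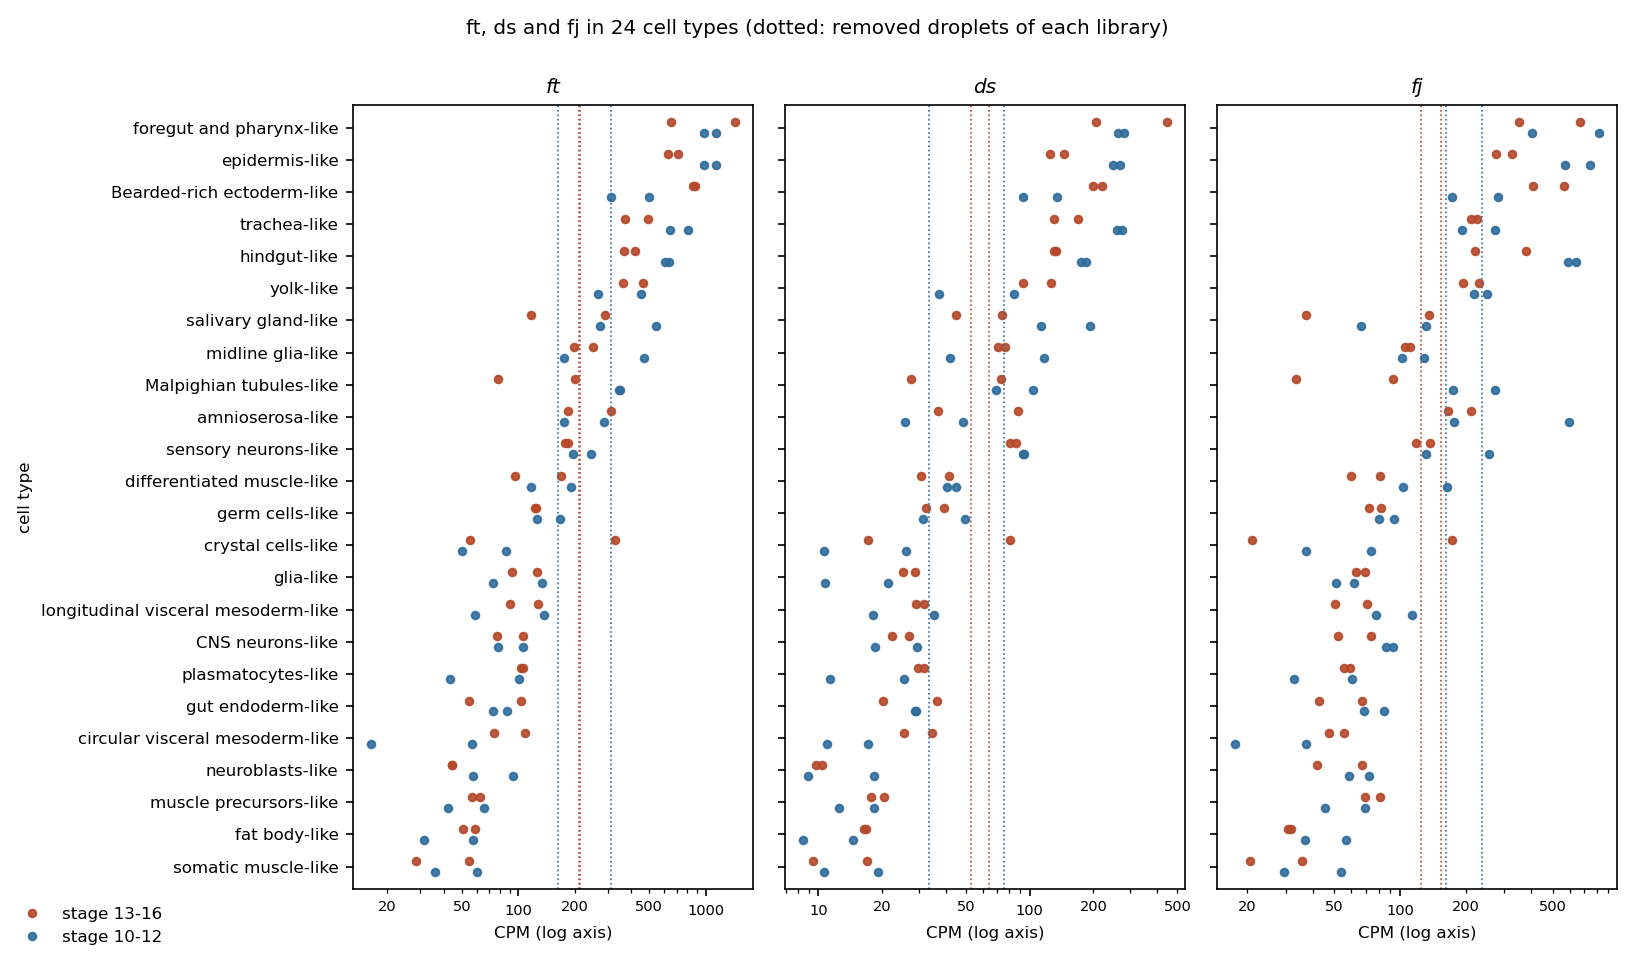
CPM (log axis) of ft, ds and fj in 24 cell types, 2 libraries per stage; dotted lines mark the removed droplets of each library. Points above all dotted lines are found for foregut and pharynx-like, epidermis-like, trachea-like and hindgut-like cells in the ft and ds panels.

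The smaller atypical cadherins had epithelial patterns of their own. Cad86C was highest over the rest in hindgut-like cells (log2 2.58 ± 0.27), foregut and pharynx-like cells (2.49 ± 0.39) and trachea-like cells (1.98 ± 0.15), and less in epidermis-like cells (1.35 ± 0.19). Hindgut-like cells had 36.7 and 65.2 CPM at stage 13-16 and 41.4 and 57.5 CPM at stage 10-12, against 19.9 and 15.8 CPM at stage 13-16 and 13.2 and 12.6 CPM at stage 10-12 in epidermis-like cells. Those ranges did not overlap. In Malpighian tubule-like cells, also a tubular epithelium, Cad86C was lower than in the rest (-2.56 ± 0.53).

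Cad99C was called higher in 7 types, the most of any member. Besides epidermis, foregut and pharynx, hindgut and trachea these were salivary gland-like cells (log2 1.22 ± 0.31), Bearded-rich ectoderm-like cells (1.18 ± 0.21) and Malpighian tubule-like cells (0.64 ± 0.19). At stage 10-12 hindgut-like cells held 48.1 and 48.7 CPM of it and salivary gland-like cells 47.6 and 41.9 CPM. The next types in that order overlapped with salivary gland-like cells. kug was called higher in Malpighian tubule-like cells (1.04 ± 0.15) and gut endoderm-like cells (0.92 ± 0.09), the endodermal lining of the midgut, and by 0.36 in epidermis and trachea. Malpighian tubule-like cells had 115 and 189 CPM of kug at stage 13-16 and 140 and 150 CPM at stage 10-12. They exceeded the next type in both libraries of each stage. Gut endoderm-like cells were called higher for kug and lower for ft, ds, fj, Cad86C and Cad99C.

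shg was the most even of the classical cadherins over types. Its highest mean was 1.73 times the median type at stage 13-16 and 1.84 times at stage 10-12, against 10.1 and 16.1 times for CadN. It was higher than the rest in foregut and pharynx (log2 0.83 ± 0.13), sensory neurons (0.81 ± 0.08), trachea (0.75 ± 0.09), epidermis (0.68 ± 0.16) and Bearded-rich ectoderm (0.39 ± 0.11). Sensory neuron-like cells had 402 and 342 CPM at stage 13-16 and 553 and 383 CPM at stage 10-12. shg was lower in somatic muscle (-2.03 ± 0.16), plasmatocytes (-1.48 ± 0.24), circular visceral mesoderm (-0.67 ± 0.10) and fat body (-0.31 ± 0.10). Somatic muscle-like cells had 33.7 and 46.1 CPM at stage 13-16 and 65.6 and 50.8 CPM at stage 10-12, the lowest mean of the 24 types at each stage.

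CadN was higher than the rest in 4 types: CNS neurons (log2 2.42 ± 0.18), longitudinal visceral mesoderm (1.79 ± 0.31), glia (0.63 ± 0.12) and circular visceral mesoderm (0.62 ± 0.11). CNS neuron-like cells had 443 and 735 CPM at stage 13-16 and 417 and 286 CPM at stage 10-12. Longitudinal visceral mesoderm-like cells, which give rise to the longitudinal gut muscles, had 545 and 381 CPM at stage 13-16, and at stage 10-12 they had 631 and 140 CPM from 94 and 51 cells. Muscle precursor-like cells had 303 and 326 CPM at stage 10-12, above the next type in both libraries, yet were not called over the rest with both stages together. Sensory neuron-like cells had 130 and 149 CPM at stage 13-16 and 144 and 55.4 CPM at stage 10-12, below CNS neurons in every library. CadN was called lower in 13 types, among them the epidermis, trachea, hindgut, salivary gland and Malpighian tubules.

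stan was called higher in 2 types only, CNS neurons (log2 2.77 ± 0.26) and sensory neurons (1.70 ± 0.12). CNS neuron-like cells had 215 and 283 CPM at stage 13-16 and 259 and 202 CPM at stage 10-12, and sensory neuron-like cells 193 and 247 CPM and 179 and 130 CPM. At stage 10-12 CNS neurons were above sensory neurons in both libraries. Both lay above foregut and pharynx-like cells, the next type, which had 152 and 96.5 CPM at stage 13-16 and 82.1 and 48.8 CPM at stage 10-12. CadN2 was called higher in somatic muscle alone (2.10 ± 0.54), where it had 2.02 and 6.25 CPM at stage 13-16 and 0 and 2.31 CPM at stage 10-12. It was called lower in 6 types, of which hindgut-like cells held no CadN2 UMI in any library. The highest CadN2 level of a single cluster lay elsewhere, at 17.6 CPM in a stage 10-12 CNS neuron-like cluster of 160 cells. Somatic muscle-like clusters held at most 5.14 CPM. The neurons of stage 10-12 replicate 2 held no CadN2 UMI, so that this peak rests on replicate 1.

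**Figure D4:**
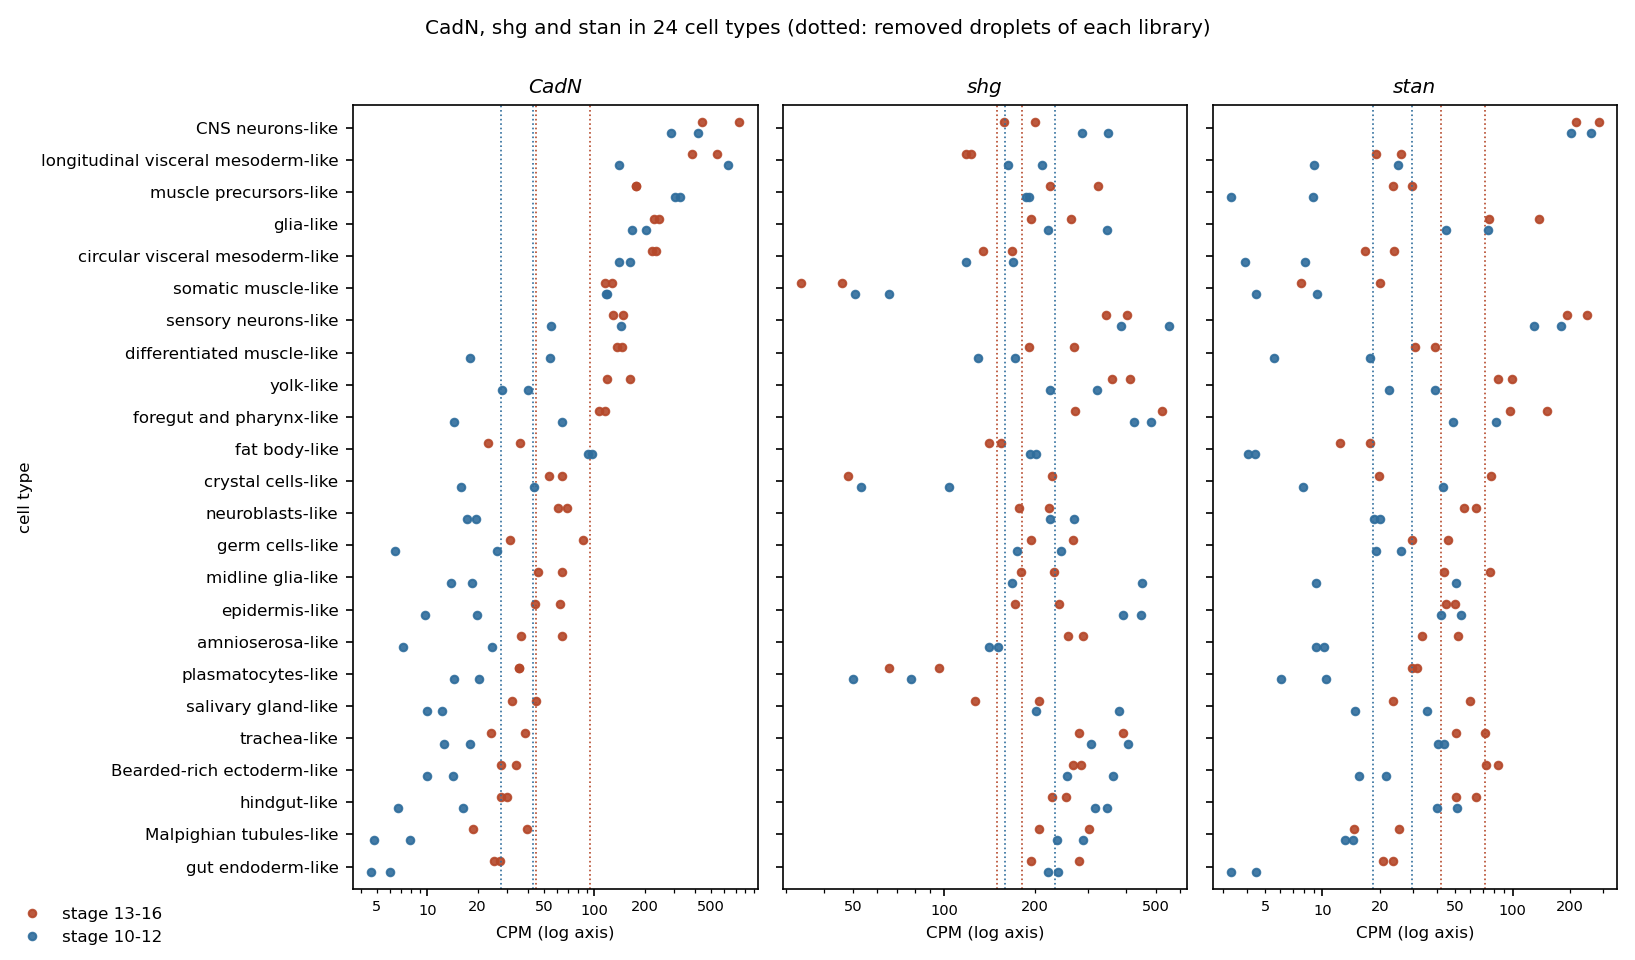
CPM (log axis) of CadN, shg and stan in 24 cell types, 2 libraries per stage; dotted lines mark the removed droplets of each library. shg runs nearly level over most types and drops in somatic muscle-like cells, stan is highest in CNS neuron-like cells, and CadN is high in CNS neuron-like, longitudinal visceral mesoderm-like and, at stage 10-12, muscle precursor-like cells.

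Single types also hid some spread. The 5 clusters of stage 10-12 named epidermis-like held 324 to 2146 CPM of ft, 60.1 to 707 of ds and 134 to 1361 of shg. A cluster of 180 cells was highest in all 3 genes. The CNS neuron-like clusters held 120 to 1145 CPM of CadN at stage 13-16 (5 clusters) and 118 to 852 at stage 10-12 (4 clusters). Their stan levels ran over a narrower range, from 96.0 to 329 CPM at stage 13-16 and from 98.2 to 266 CPM at stage 10-12. Clusters were formed from other genes of the same cells, so that no test was made between them.

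Between the stages most members did not pass the test within a class. The classes were made of different cells at the 2 stages, so that their differences between stages mix types. Epidermis-like cells were 1181 of 3735 and 915 of 4452 epithelial cells at stage 13-16 and 2361 of 3403 and 922 of 1325 at stage 10-12, while foregut and pharynx-like cells were 1081 and 2587 at stage 13-16 and 264 and 100 at stage 10-12. In epithelia 9 members could be tested, since CadN2 failed the filter on low counts, and 1 was called, beside 33.7% of all 9601 genes (21.1% higher and 12.6% lower). That gene was CadN, at 54.9 and 52.7 CPM in stage 13-16 epithelia and 17.9 and 16.4 CPM in stage 10-12 epithelia (log2 1.77 ± 0.19, n = 2 libraries per stage, adjusted p = 0.00671, edgeR). In epidermis-like cells alone the difference was 2.15 ± 0.38 (adjusted p = 0.0131). Among barcodes of at least 4000 UMIs it had 42.9 and 44.5 CPM at stage 13-16 and 13.6 and 14.7 CPM at stage 10-12. The stage 13-16 levels were above the removed droplets (44.6 and 93.6 CPM) in 1 of the 2 libraries, replicate 1.

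Markers of other cells moved with it. The 15 CNS neuron markers summed to 688 and 797 CPM in stage 13-16 epithelia and to 356 and 339 CPM in stage 10-12 epithelia, with none of the 15 at 0 in any library. The 12 somatic muscle markers summed to 870 and 901 CPM at stage 13-16 and to 334 and 252 CPM at stage 10-12. In the removed droplets the CNS neuron markers summed to 897 and 2588 CPM at stage 13-16 and to 942 and 756 CPM at stage 10-12. The part of these RNAs in the CadN values of epithelia was not tested.

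Among the other epithelial members fj had log2 -0.76 ± 0.28 and Cad86C 0.70 ± 0.23 (adjusted p = 0.0843 and 0.0668, edgeR), and ft, ds and shg had -0.46, -0.41 and -0.41 with standard errors of 0.33 to 0.34. The stage 13-16 replicates differed from each other, with ft at 754 and 483 CPM. Without stage 13-16 replicate 1 the epithelial differences were -1.02 for shg, -1.06 for ft, -1.08 for ds and -1.14 for fj. These were the lowest values with a library left out, and the highest were -0.03, -0.09, -0.01 and -0.54. The size of these differences therefore depends on which collection is kept.

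In neurons no member was called by edgeR between the stages, beside 8.38% of the 9280 genes tested (5.02% higher and 3.36% lower). An unadjusted p under 0.05 was reached by 5 members: shg (log2 -0.89 ± 0.27), CadN (0.65 ± 0.24), Cad86C (1.17 ± 0.42), kug (-0.48 ± 0.16) and fj (-0.75 ± 0.27). DESeq2 called 1, shg. stan in neurons had log2 0.03 ± 0.17, with 212 and 279 CPM at stage 13-16 and 243 and 188 CPM at stage 10-12, ranges that overlap.

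In mesoderm stan was the called member, beside 37.5% of the 9593 genes tested (22.4% higher and 15.1% lower). It had 14.7 and 24.3 CPM at stage 13-16 and 9.7 and 4.1 CPM at stage 10-12 (log2 1.45 ± 0.38, adjusted p = 0.0279, edgeR), all below the removed droplets. The call was lost in 5 of 15 alternatives, with an adjusted p of 0.0526 to 0.175: in either depth class, in somatic muscle alone (0.99), without stage 13-16 replicate 2 (1.19) and without stage 10-12 replicate 2 (0.93). Muscle precursor-like cells were 216 and 516 of the mesodermal cells at stage 13-16 and 905 and 312 at stage 10-12. The CNS neuron markers in mesoderm summed to 968 and 1419 CPM at stage 13-16 and to 663 and 426 CPM at stage 10-12, and their part in this was not tested. CadN in mesoderm had log2 -0.35 ± 0.17 and was not called (adjusted p = 0.149). Over all barcodes, which mixes the types, Cad86C (log2 1.05 ± 0.25) and stan (0.83 ± 0.20) were called higher (adjusted p = 0.0406 and 0.0415), beside 22.6% of 12462 genes, of which the higher ones were 12.5% and the lower ones 10.0% of all tested, and neither was called over the kept cells alone. In such sums more cells of a type and more RNA per cell cannot be told apart.

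Whether a class difference itself changed between the stages was tested in the fit of all 3 classes. CadN was the one member called. Its difference of mesoderm over epithelia was log2 1.59 ± 0.18 at stage 13-16 and 3.68 ± 0.20 at stage 10-12, a change of -2.09 ± 0.26 (adjusted p = 0.00593, edgeR) beside 4.22% of all genes. It was called under every alternative tried, from -1.54 to -2.31. Its difference of neurons over epithelia was 3.11 ± 0.19 at stage 13-16 and 4.18 ± 0.20 at stage 10-12, a change of -1.06 ± 0.26 (adjusted p = 0.0467) beside 6.28% of all genes, which was lost under 9 of 15 alternatives. In both, the epithelial levels, which exceeded the removed droplets in 1 of 4 libraries, are on 1 side of the comparison. For neurons over mesoderm no member was called, beside 4.60% of all genes, and CadN had 1.03 ± 0.25 (adjusted p = 0.0545, edgeR). That change of CadN was called with DESeq2 (0.94), at clustering resolution 1 (1.74), without doublet removal (1.55) and with a minimum of 1000 UMIs (1.57). It was not called with RLE size factors (0.94), without the replicate block (1.01) or in barcodes under 4000 UMIs (0.47).

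Within single types 207 comparisons of the stages could be made, of which 28 were called, 26 higher and 2 lower at stage 13-16. Over all genes 18.3% were called (11.9% higher and 6.39% lower). shg and kug were called in none of the 24 types. CadN (7 higher and 2 lower) and stan (9 higher) made up most calls, followed by Cad86C (4), Cad99C and ds (2 each), and ft and fj (1 each). In 10 of the 26 higher calls the stage 13-16 level was above the removed droplets in both libraries, and in the other 16 it was not.

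**Figure D5:**
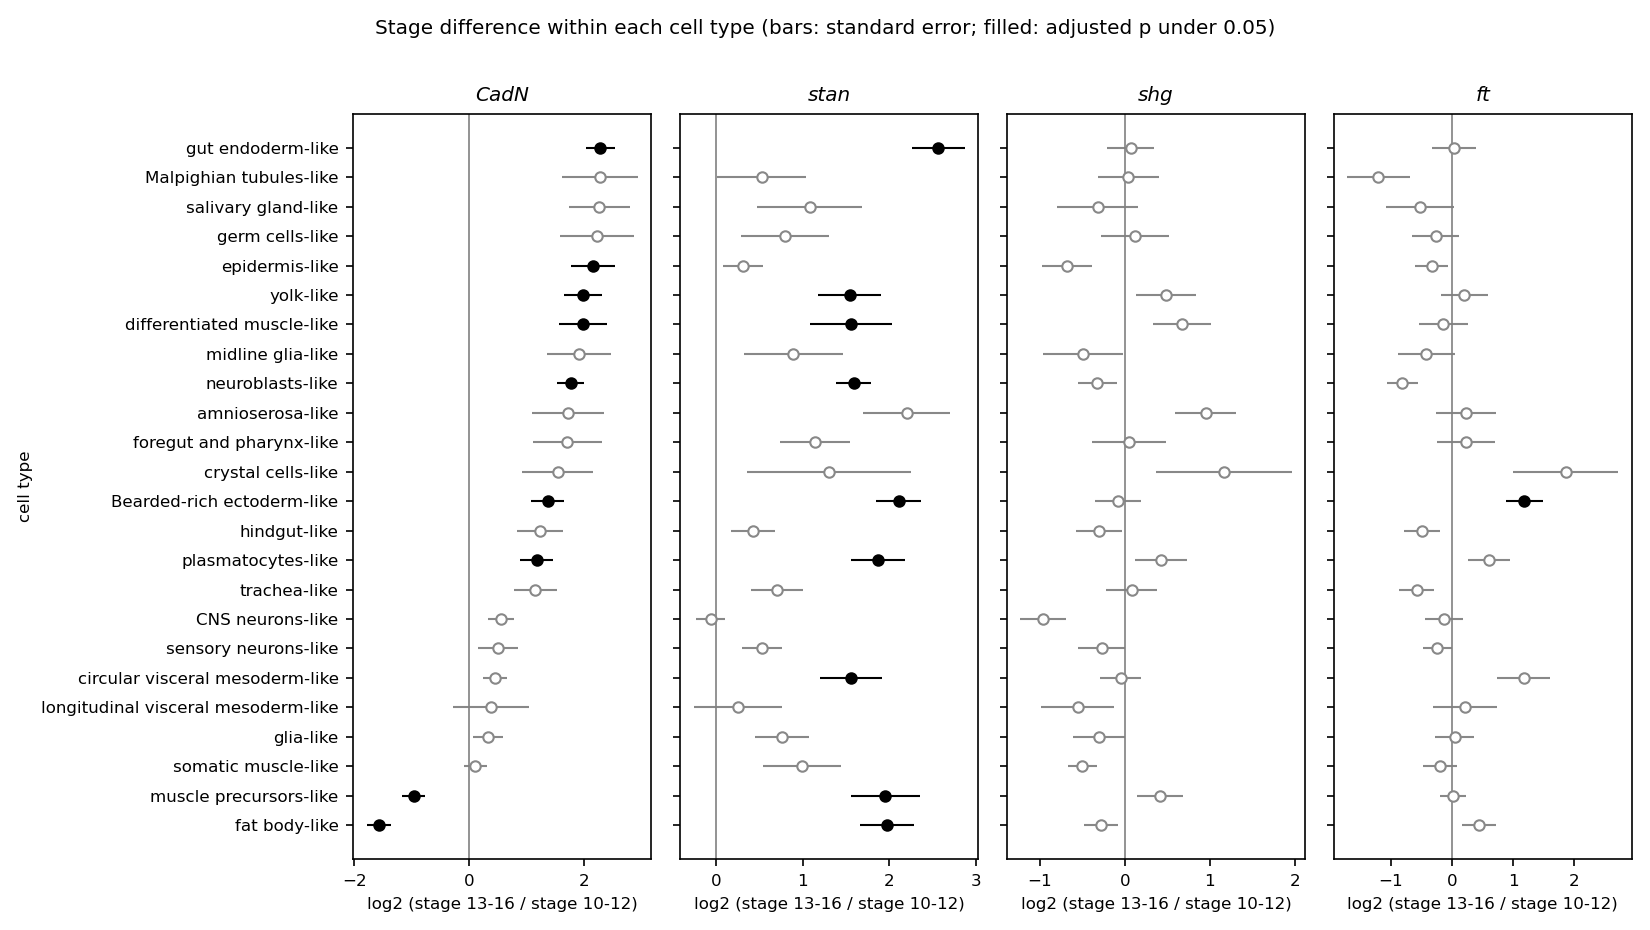
Log2 difference of stage 13-16 over stage 10-12 within each cell type for CadN, stan, shg and ft (a panel each). Bars are standard errors, and points are filled where the adjusted p was under 0.05. The filled points gather in the CadN and stan panels, the ft panel has 1, in Bearded-rich ectoderm-like cells, and the shg panel has none.

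Bearded-rich ectoderm-like cells, ectoderm that expresses targets of Notch, held 6 of those 10 calls. Cad86C had 23.9 and 20.8 CPM in them at stage 13-16 and 3.0 and 5.0 CPM at stage 10-12 (log2 2.62 ± 0.41, adjusted p = 0.000203, edgeR). ft had 857 and 877 CPM at stage 13-16 and 496 and 311 CPM at stage 10-12 (1.18 ± 0.31, adjusted p = 0.00772). stan (2.11 ± 0.26), Cad99C (1.24 ± 0.26), fj (1.15 ± 0.28) and ds (0.94 ± 0.25) were called higher too. The summed epidermis markers in these cells were 11610 and 14120 CPM at stage 13-16 and 5706 and 5579 CPM at stage 10-12, where a different makeup of the cluster and more RNA per cell cannot be told apart. With a minimum of 1000 UMIs in place of the removal of clusters, fj was -0.029, ft 0.23, ds 0.10 and Cad99C 0.66, none of them called. Without stage 10-12 replicate 2, ft (0.90), ds (0.72) and fj (0.86) were not called either, whereas Cad86C and stan were called under every alternative run.

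The other calls above background were Cad86C in trachea-like cells (39.2 and 39.5 CPM at stage 13-16, 21.2 and 14.4 CPM at stage 10-12, log2 1.26 ± 0.26), CadN in differentiated muscle-like cells, and CadN and stan in yolk-like cells. The trachea-like call was lost without stage 10-12 replicate 1 (1.52) and without replicate 2 (1.05). CadN in differentiated muscle-like cells had 137 and 147 CPM at stage 13-16 and 54.0 and 18.1 CPM at stage 10-12 (1.98 ± 0.41, adjusted p = 0.00911, edgeR), a call lost without stage 10-12 replicate 1 (2.99), without stage 10-12 replicate 2 (1.47) and without the removal of doublets (1.08). The opposite direction was found for CadN in muscle precursor-like cells, with 177 and 176 CPM at stage 13-16 and 303 and 326 CPM at stage 10-12 (-0.97 ± 0.20, adjusted p = 0.0161), which was -0.86 and not called without stage 10-12 replicate 2. In fat body-like cells CadN had 23.2 and 35.9 CPM at stage 13-16 and 91.9 and 97.3 CPM at stage 10-12 (-1.57 ± 0.22, adjusted p = 0.00327). Only the stage 10-12 levels of fat body-like cells were above the removed droplets, and without the removal of doublets the difference was 0.45.

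The partners of these cadherins were read from fixed lists, beside 65.1% of all genes called in neurons over epithelia (32.5% higher and 32.7% lower) and 57.2% in mesoderm over epithelia (29.7% higher and 27.5% lower). Of 14 genes of Fat and Dachsous signalling, which includes the Hippo pathway, 13 were lower in neurons than in epithelia and none higher, at a median of log2 -1.18 against 0.01 over all genes. Among them were dachs, the myosin that Fat restrains (-2.60), ex (-2.31), Fbxl7 (-2.22), lft (-2.12) and yki, the transcriptional effector (-1.23). In mesoderm over epithelia 5 of the 14 were lower and 4 higher, near the shares over all genes. dachs (-3.25) and lft (-3.42) were lower while the kinases hpo (0.73) and wts (0.48) were higher.

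Of the 5 other core planar polarity genes, 3 were higher and 2 lower in neurons over epithelia, a split close to that of all genes. pk and dsh (log2 0.66 each) and Vang (0.24) were higher as stan was, whereas fz (-0.80), the receptor, and dgo (-2.45) were lower. In mesoderm over epithelia dsh was higher (0.42), pk (-0.69) and dgo (-3.01) lower, and fz and Vang were not called. Between the stages pk alone of the 5 was called in epithelia (2.16).

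Of 11 genes of adherens junctions and apical polarity, 9 were lower and 1 higher in neurons over epithelia, and 10 were lower and 1 higher in mesoderm over epithelia. crb, the apical determinant, had log2 -2.46 in neurons and -3.57 in mesoderm. arm, the beta-catenin that binds E-cadherin, had -0.32 and -0.41. The higher ones were p120ctn in neurons (0.42) and Vinc in mesoderm (0.96). Of 7 other cadherin genes, 4 were lower and 1 higher in neurons and 6 lower and none higher in mesoderm. Between the stages 4 of these 7, Cad88C, Cad89D, Cad96Ca and Cad96Cb, were higher in stage 13-16 epithelia by log2 2.73 to 4.04, beside 21.1% of all genes, where none of the epithelial members ft, ds, fj, Cad86C and Cad99C was called. Of the partners of kug in follicle cells, Lar was higher (1.24) and Sema5c lower (-1.72) in neurons over epithelia.

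The genes most like each member over the 98 sums were found among 9101 genes by Pearson correlation of log2 (CPM + 10), given as descriptions. ft was most like ds (0.963), dachs (0.936) and crb (0.916), and ds most like ft, crb (0.933) and ec (0.928). fj was most like ft (0.912), dachs (0.874) and CG8312 (0.857). Cad99C was most like sas (0.883), CG11069 (0.878) and CG31121 (0.871), and Cad86C most like dpy (0.856), CG4324 (0.841) and uif (0.833). shg was most like baz (0.788), N (0.753) and cno (0.736), and kug most like Shrm (0.772), Gp150 (0.706) and Inx3 (0.697). stan was most like Nrg (0.813), X11Lbeta (0.805) and loaf (0.798). CadN was most like CG7646 (0.741), rhea (0.731) and side (0.721). The lowest likenesses were found for CadN2, with Cralbp (0.568), DPCoAC (0.554) and CG2003 (0.538). Among the members, shg and CadN were nearly unrelated over the types (r = -0.0983), and CadN ran against ft (-0.368) and ds (-0.361).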

How the data were processed

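The authors processed the reads with Cell Ranger 6.1.2 against a FlyBase release of the fly genome (10x 3' chemistry) and deposited, for 4 libraries, the UMI counts per gene and barcode without normalization or pooling. A barcode was dropped when mitochondrial genes held over 25% of its UMIs. Each library was clustered by itself, and a cluster needed 60 marker genes or more to be kept (the others are called removed droplets). Doublets were taken out as a share of 0.008 of the cells for each 1000 cells of a library, so that larger libraries lost larger shares. That removed 1860 and 549 barcodes at stage 10-12, where 13387 and 7736 cells were kept. At stage 13-16 it removed 6580 and 7882, where 22100 and 23507 cells were kept. The limit of 60, like the limits of the naming rule, was set after the clusters were seen, since 50 removed no cluster from stage 13-16 replicate 1. Both libraries of each stage were next pooled and clustered at resolution 2, and a cluster was named from its 5 best markers. Members and gene lists were left out of the genes used for clustering.

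UMIs were summed per library and class or type and tested in edgeR 4.0.16 (R 4.3.3) by its quasi-likelihood F test, after filterByExpr and TMM scaling, with p-values adjusted by Benjamini-Hochberg. Comparisons of classes and types had the library as a block, and stages were compared without a block, 2 libraries against 2. The script was also run on simulated counts with a fixed spread and no effect of library. That run cannot show how the tests fare with the spread between these libraries. All 10 members are named, with the 3 genes most like each and the called genes of fixed lists. The members and lists were chosen with earlier results of these data known. Alternatives were RLE size factors, DESeq2 1.42.0, no filter, another clustering, no doublet removal, a minimum of 1000 UMIs, single types, and each library left out. Gene symbols came from a table of identifiers, in which 17800 genes had a symbol. No sequences were used here. Floors of 3 counts cover counting error only.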

Additional observations from a re-analysis of the deposited data

Results flagged for a closer look

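For 1 gene, CadN, the difference between classes changed with the stage by a test of that change. Mesoderm over epithelia changed by log2 -2.09 between stage 13-16 (1.59) and stage 10-12 (3.68), with an adjusted p of 0.00593 in edgeR's quasi-likelihood test. Neurons over epithelia changed by log2 -1.06 between stage 13-16 (3.11) and stage 10-12 (4.18), with an adjusted p of 0.0467. The values of CadN were 160 and 163 CPM in stage 13-16 mesoderm and 206 and 197 CPM in stage 10-12 mesoderm, and 54.9 and 52.7 CPM in stage 13-16 epithelia and 17.9 and 16.4 CPM in stage 10-12 epithelia. Of the 4 epithelial libraries, 1 was above its removed droplets. Groups of 2 libraries are too small for a test of single libraries that stand apart.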

How the results depend on the processing

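Among the values recomputed under the alternatives, 5739 kept their direction and side of the threshold, 266 passed it, 229 no longer did and 14 reversed. The 9 calls of neurons over mesoderm fell to 2 in barcodes under 4000 UMIs, where Cad86C (-0.12), Cad99C (-0.24), ft (-0.0061) and fj (-0.041) reversed. In epithelia the 1 call between stages became 2 with DESeq2, in barcodes of 4000 UMIs or more, at clustering resolution 1 and without doublet removal. In mesoderm 1 became 0 in either depth class and in somatic muscle alone, and 2 at resolution 1 and with the replicate block. In neurons 0 became 1 with DESeq2 and 2 at resolution 1, with a minimum of 1000 UMIs and without doublet removal. Over all barcodes 2 became 0 in kept cells and with the replicate block. Within types 28 became 43 without doublet removal and with the replicate block, and 44 without a filter. Of the 144 calls of types over the rest 101 were made under every alternative, and of the 28 between stages 11. With each library left out in turn the calls ran from 8 to 10 (neurons over epithelia), 9 to 10 (mesoderm over epithelia), 7 to 9 (neurons over mesoderm), 1 to 5, 0 to 0 and 0 to 3 (stages in epithelia, neurons and mesoderm), 0 to 1 (all barcodes), 127 to 142 (types) and 22 to 54 (stages within types).

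CadN2 reversed without stage 10-12 replicate 1, with a range over the libraries left out of -1.18 to 5.75 in neurons over epithelia and -4.45 to 1.80 in neurons over mesoderm. So did shg in Bearded-rich ectoderm over the rest at resolution 1 (-0.052) and fj between its stages with a minimum of 1000 UMIs (-0.029). Without doublet removal stan in CNS neurons (0.67), CadN in fat body (0.45) and ft (1.41) and ds (1.72) in germ cells reversed between stages, and without stage 13-16 replicate 1 so did ft (range -0.74 to 0.51) and ds (-0.70 to 0.49) in gut endoderm. The causes were not tested. Genes called over the whole table fell from 6927, 6083 and 6703 to 2502, 1277 and 1899 in barcodes under 4000 UMIs. Between stages in neurons 778 genes became 1774 with DESeq2, 2826 at resolution 1, 3403 without doublet removal, 2897 with a minimum of 1000 UMIs, 1487 without a filter, 283 in barcodes of 4000 UMIs or more, 251 in CNS neurons alone, 0 with the replicate block and 13 to 1310 with a library left out. In epithelia 3234 became 1723 with a minimum of 1000 UMIs, 1941 in barcodes under 4000 UMIs and 2146 without stage 10-12 replicate 2. In mesoderm 3599 became 1291 in somatic muscle alone and 1166 in barcodes under 4000 UMIs. Over all barcodes 2812 became 4400 with DESeq2, 508 with the replicate block, 1356 without stage 10-12 replicate 2 and 0 without either stage 13-16 library. Same-numbered libraries of the 2 stages deviated in opposite directions (r = -0.234 over 9573 genes), so the numbers were taken to pair nothing. With 2 libraries per stage and shallow cells, a difference that missed the threshold was not shown to be absent.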

Other observations

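Cells outside the named types also held these genes. At stage 13-16, 1 cluster of 1373 cells without a name (median of 7251 UMIs) held 943 CPM of ft, 333 of ds and 668 of shg together with 389 of CadN and 219 of stan, genes whose highest levels lay in different classes. A second unnamed cluster of 610 cells (median of 9435 UMIs) held 887 CPM of ft, 721 of fj and 55.2 of Cad86C, with 62.7 of CadN. At stage 10-12 an unnamed cluster of 327 cells held 819 CPM of ft, 508 of shg and 145 of CadN. These clusters entered no comparison of classes.

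Yolk-like cells held several members above the removed droplets in both stage 13-16 libraries: shg at 412 and 358 CPM, ft at 466 and 360 CPM, CadN at 120 and 163 CPM and stan at 99.0 and 83.4 CPM. In the same cells the 15 CNS neuron markers summed to 1664 and 2221 CPM and the 14 epidermis markers to 15420 and 10580 CPM at stage 13-16, and the part of RNA from other cells was not tested.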
